A study of Mus musculus with 59 samples.

Results

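The drug and ester metabolizing enzymes described here are the cytochromes P450 of families 1 to 4 (Cyp), the cytosolic glutathione transferases (Gst), the UDP-glucuronosyltransferases (Ugt), the sulfotransferases (Sult), the carboxylesterases (Ces) and the epoxide hydrolases Ephx1 and Ephx2. They were taken by gene symbol from a table of 55421 genes, with a mean of at least 1 over the 59 tumor libraries on the deposited scale, CPM with a scaling factor per library (scaled CPM). Of 204 genes with a matching symbol 36 reached that mean, among 14487 genes of any kind that did. The mice are labelled B6.FVB-Tg(MMTV-PyVT)634Mul/LellJ with the genotype PyMT (+/-). In this model the mouse mammary tumor virus promoter drives the polyoma middle T oncogene in mammary epithelium, and all 3 groups carry the transgene. The labels separate the groups by treatment alone, as vehicle with 19 libraries, methylparaben with 20 and propylparaben with 20. The parabens are preservatives, here the esters of para-hydroxybenzoic acid with a methyl or a propyl group. Total RNA came from flash-frozen tumor. No dose, treatment time or age is given in the sources used here. Each library has its own tumor number, but the labels do not say that each tumor came from a separate animal. A p-value therefore measures only the spread between tumor libraries, some of which may share an animal.

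As background, foreign compounds and many lipids are cleared in steps. Cytochromes P450 add oxygen, epoxide hydrolases open the epoxides that P450s form, and carboxylesterases split esters. Glutathione transferases, sulfotransferases and glucuronosyltransferases then attach glutathione, sulfate or glucuronic acid, which makes the product easier to export. Parabens are esters: carboxylesterases cut them to para-hydroxybenzoic acid, and their phenol group can be sulfated or glucuronidated. The liver holds most of this capacity, while other organs express a narrower set of the same families.

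The glutathione transferases made up most of the summed level. Of 23 matching Gst genes 15 were members, against 13 of 113 Cyp genes, 3 of 20 Ces genes, 3 of 27 Sult genes, both Ephx genes and none of 19 Ugt genes. The matching genes include pseudogenes by symbol, mainly of Cyp and Sult, so these are not shares of working enzymes. The 15 Gst genes summed to a mean of 333 scaled CPM, out of 490 for all 36 members. The 13 Cyp genes summed to 93.6, the Ephx pair to 43.6, the Ces genes to 14.2 and the Sult genes to 6.43. Without methylparaben replicate 5, a library that stood apart, the Ces sum was 9.16. All 36 members are annotated as protein coding in GENCODE M21.

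Because long genes collect more reads, levels were compared between genes per kb of exon. On that scale Gsto1, an omega class transferase that also reduces dehydroascorbate, was highest at 32.7 scaled CPM per kb. Gstt3, a theta class transferase, followed at 30.2, and Gstm5, a mu class transferase, at 23.5. Ephx1, the microsomal epoxide hydrolase, came next at 13.7, before Gstk1, the kappa class transferase of mitochondria and peroxisomes, at 10.8. The highest P450 per kb was Cyp2f2 at 4.61, the highest carboxylesterase Ces1d at 3.46 and the highest sulfotransferase Sult1a1 at 2.64. Without methylparaben replicate 5 Ces1d stood at 1.69 per kb. Exons of Ephx1 and Cyp4v3 overlap those of another gene on the same strand (Gm36961 and Gm45753), so their levels are uncertain where counting could not assign a read. Gstp1, the pi class transferase, reached only 0.933, but reads shared with near-identical pi class copies could be lost in counting, so its level is uncertain.

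**Figure D1:**
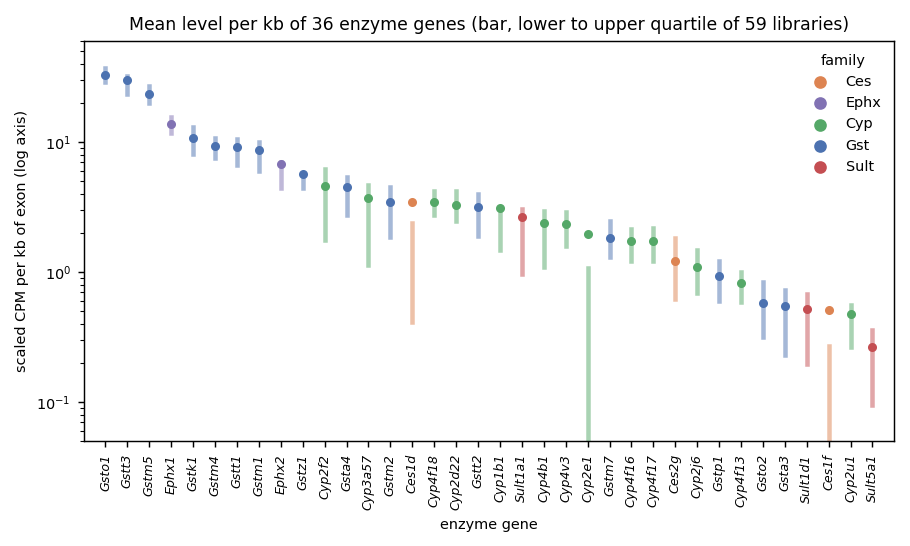
Mean level of each of the 36 enzyme genes in scaled CPM per kb of exon (log axis), coloured by family, with a bar from the lower to the upper quartile of the 59 libraries. Gsto1, Gstt3 and Gstm5 lead, and the bars of Ces1d, Cyp2e1 and Ces1f lie below or reach below their means, for Cyp2e1 and Ces1f to the lower edge of the axis.

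Most of the matching genes were near or at 0. They include pseudogenes, whose symbols hold -ps, and Cyp4x1os, and most of these had no read. Of the 204 matching genes 106 had no read in any of the 59 libraries, which allows up to 0.0319 CPM (3 reads of 94118397, counting error only), and 62 had reads but a mean below 1. All but 4 of the 19 Ugt genes were without a read, and the highest, Ugt1a7c, had a mean of 0.30 scaled CPM. The 9 Ugt1a genes share 50.3 to 60.6% of their exon bases with each other on the same strand, and Ugt2a1 and Ugt2a2 share 68.9 and 69.7% of theirs. Reads there could be lost in counting, so the bound does not hold for these 11 genes. Other matching genes with near-identical copies could lose reads as well, which was not examined, so for them the bound is uncertain too. Cyp3a11, a main hepatic drug-oxidizing P450, had 11 reads in all. Cyp1a1, the classic target of the aryl hydrocarbon receptor, had 9 reads. Of 8 hepatocyte markers 6, Alb among them, had means from 0.00788 to 0.373 scaled CPM, while Ahsg had a mean of 2.91 and Fgb of 30.2. The summed list ran from 1.64 to 112 scaled CPM in vehicle, 9.19 to 97.4 in methylparaben and 8.70 to 142 in propylparaben.

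The mean of 1 fell among genes of similar level. Just inside were Sult5a1 at 1.17, Sult1d1 at 1.28 and Gsto2 at 1.36 scaled CPM. Just outside were Ces2e at 0.71, Sult2b1 at 0.59 and Cyp2j9 at 0.57. Cyp2b10, a target of the constitutive androstane receptor, averaged 0.52 but had a read in only 6 of the 59 libraries. The highest was at 28.6, in methylparaben replicate 5, which held most of its 48 reads.

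The libraries held 1166502 to 2032789 reads on genes, and 1 read was worth 0.323 to 0.664 scaled CPM. Summed luminal epithelial markers ranged from 1550.0 to 2970.0 scaled CPM, so these markers were present in every library. A few libraries stood apart and touch the results below. Methylparaben replicate 5 had a summed adipocyte marker level of 11000.0 scaled CPM, against a methylparaben median of 482. Its summed skeletal muscle markers, at 7730.0, were also the highest of all libraries. It gave the highest value for 15 of the 36 members. A further 7 libraries were lowest on the first principal component of all genes tested, namely vehicle replicates 7, 8, 10, 13, 14 and 19 and propylparaben replicate 1. The sign of this component was set so that it fell as a score of dividing cell markers rose. Fits without these 7 libraries and relations with that score are therefore not taken as independent of each other. In bulk tissue, fewer cells of a type and less RNA per cell cannot be told apart.

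None of the 36 members passed the test in any of the 3 comparisons (limma on log2(scaled CPM + 1), adjusted p under 0.05 over all 14487 genes). For methylparaben against vehicle, 0.683% of all genes were called higher and 0.635% lower. For propylparaben against vehicle, 0.0276% of all genes were called higher and 0 lower, and between the esters 0 were called in either direction. At an unadjusted p under 0.05, methylparaben had 6 members higher and 3 lower, 25% of the members against 22.1% of all genes. Propylparaben had 3 higher and 2 lower, 13.9% against 18.4%, and the esters differed from each other for 0 members against 2.15% of all genes. Shares at this level lay close to or below the background.

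The direction in methylparaben leaned upward among the members. Their median log2 fold change was 0.16, with 26 of 36 above 0, against 0.01 and 51.2% above 0 for all genes. Ces1f is counted here and among the edgeR calls below, though it reached the mean of 1 only through methylparaben replicate 5. For propylparaben the median was 0.07, with 22 of 36 above 0, against 0 and 49.8% for all genes. For propylparaben against methylparaben the median was -0.11, with 11 of 36 above 0, against -0.01 and 46.6% for all genes. Without methylparaben replicate 5 that median was -0.02. Adding the adipocyte marker score to the fit brought the methylparaben median to -0.01, and leaving out methylparaben replicate 5 brought it to 0.09. On recovered reads edgeR's quasi-likelihood test called 7 members for methylparaben (Ces1d, Ces1f, Cyp2e1, Gsta3 and Gstm1 higher, Cyp1b1 and Gstt3 lower) among 585 genes in all, 4.04% of those tested. Without methylparaben replicate 5 edgeR called 1 member, Gstt3, among 143 genes (0.991%). DESeq2 called 4 members, Cyp1b1, Gsta3, Gstm1 and Gstt3, among 640 genes (4.42%). Both tools called 0 members for propylparaben against vehicle (31 genes or 0.214% by edgeR and 231 or 1.59% by DESeq2). They also called 0 members between the esters (21 genes or 0.145% by edgeR and 0 by DESeq2).

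**Figure D2:**
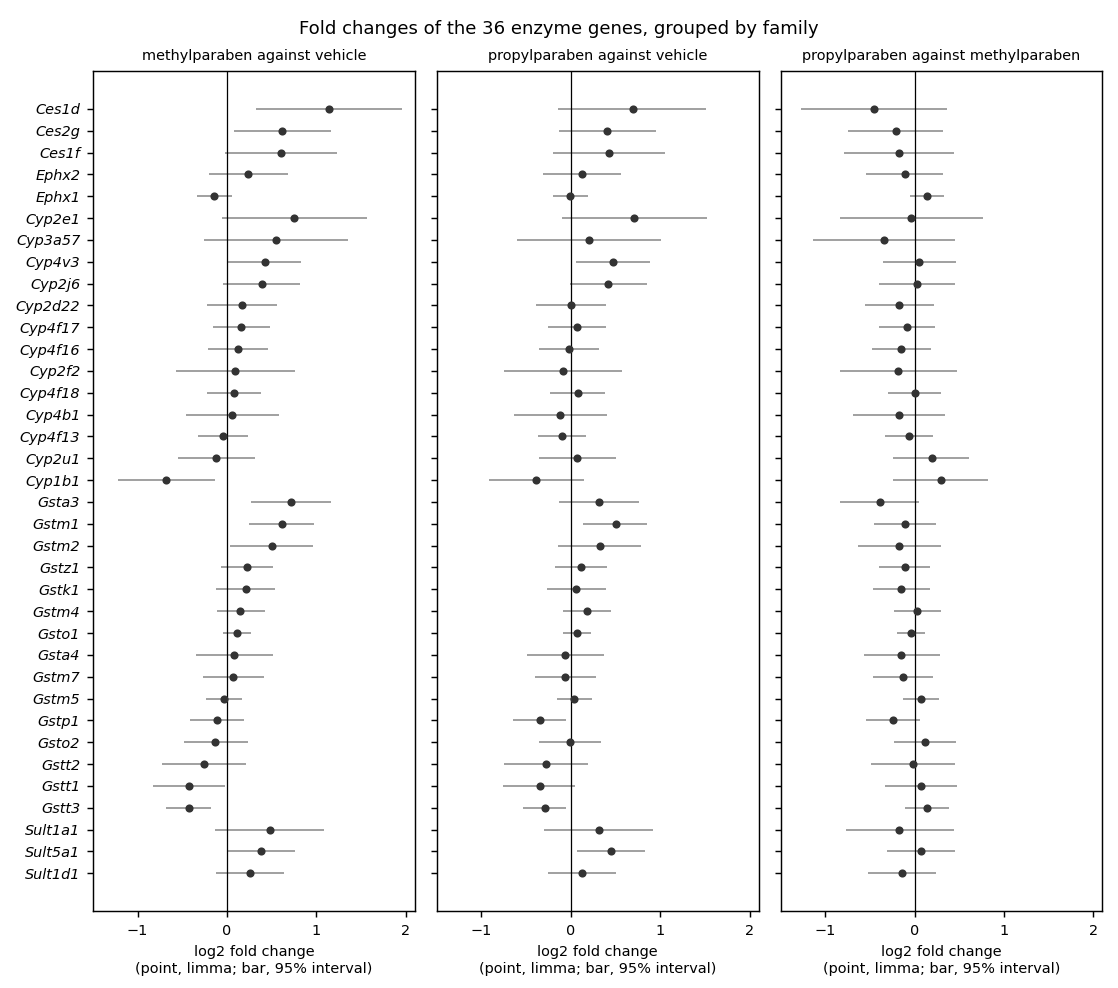
Log2 fold change of each of the 36 enzyme genes from limma on log2(scaled CPM + 1), as a point with a 95% interval, for the 3 comparisons. The carboxylesterases lie to the right in both comparisons with vehicle, Gstt3, Gstt1 and Gstt2 lie to the left, and the intervals between the esters all include 0.

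The 3 carboxylesterases, the enzymes that cut paraben esters, were higher on average in both treated groups, without passing the test. Ces1f is among them only through methylparaben replicate 5, since its mean over the other 58 libraries was 0.865 scaled CPM. Its direction is therefore a description. Ces1d hydrolyses stored triacylglycerol and foreign esters, and lies on chr8:93166068-93197838 (GRCm38, as for all positions here). In vehicle its lowest, median and highest values were 0, 1.24 and 7.0 scaled CPM. In methylparaben they were 0, 4.41 and 252, and in propylparaben 0, 2.78 and 27.4. The highest libraries of the treated groups were replicate 5 in each, and the groups overlapped over most of their range. Replicate numbers only follow the order of the records, and these are different tumors, numbered 38 and 62, with no link given. Methylparaben had a log2 fold change of 1.14 ± 0.41 (SE; limma, adjusted p = 0.0953), with 16 of 20 libraries above the vehicle median. It was 0.69 ± 0.41 for propylparaben (limma, adjusted p = 0.364). Without methylparaben replicate 5 the methylparaben value was 0.85 (limma, adjusted p = 0.156; from 0.0104 to 0.990 over all alternatives and tools). Over the other 19 methylparaben libraries the mean was 4.99 ± 4.22 scaled CPM (SD), against 2.03 ± 2.00 in vehicle. With the adipocyte score in the fit the log2 fold changes were 0.34 and 0.13 for methylparaben and propylparaben.

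Ces1f, its neighbour 58398 bases away and a lipid hydrolase as well, was at 0 in 10 of 19 vehicle libraries. Vehicle values ran from 0 to 2.64 scaled CPM with a median of 0, methylparaben values from 0 to 49.8 with a median of 0.819, and propylparaben values from 0 to 10.6 with a median of 0.390. The 3 groups overlapped, and propylparaben replicate 5 held the second highest value after methylparaben replicate 5. Log2 fold changes were 0.60 ± 0.31 for methylparaben (limma, adjusted p = 0.243) and 0.43 ± 0.31 for propylparaben (limma, adjusted p = 0.470). With the adipocyte score in the fit they were -0.05 and -0.02. Ces1f missed the mean of 1 without methylparaben replicate 5 and was then not tested.

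Ces2g, of the carboxylesterase 2 family, moved little without that library. Its lowest, median and highest values were 0, 2.54 and 9.30 scaled CPM in vehicle, 1.18, 4.33 and 14.8 in methylparaben and 0.512, 3.69 and 10.5 in propylparaben. Medians were higher in the treated groups, and the ranges overlapped almost fully. Methylparaben gave a log2 fold change of 0.62 ± 0.27 (limma, adjusted p = 0.163) and 0.60 without methylparaben replicate 5. For propylparaben it was 0.41 ± 0.27 (limma, adjusted p = 0.419). With 6 tissue scores in the fit (adipocyte, skeletal muscle, fibroblast, macrophage, T cell and B cell) the values were 0.05 and -0.16.

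Between the epoxide hydrolases the spread differed more than the groups. Ephx1 had a mean of 27.9 ± 7.07 scaled CPM in vehicle, 24.7 ± 4.39 in methylparaben and 27.5 ± 5.85 in propylparaben (SD). Its SD of log2 values over all libraries, 0.31, was among the 3 lowest of the members. Ephx2, the soluble enzyme that hydrolyses epoxides of fatty acids, had group medians of 12.9, 15.1 and 13.6 scaled CPM in vehicle, methylparaben and propylparaben. Its value in methylparaben replicate 5 was 171, while the highest of the other 58 libraries was 33.9. No fold change of either gene had an adjusted p under 0.379 in the main limma fit. With 1 library left out, the lowest for Ephx1 in methylparaben against vehicle was 0.239 (limma, without vehicle replicate 16).

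Among the P450s, Cyp1b1 had the lowest log2 fold change of all members for methylparaben. It oxidises estradiol to a catechol, is expressed outside the liver, and lies on chr17:79701537-79715061. Its lowest, median and highest values were 4.75, 14.6 and 89.0 scaled CPM in vehicle, 4.39, 11.1 and 41.6 in methylparaben and 4.84, 14.6 and 25 in propylparaben. The high vehicle values set the difference in means, and below them the groups overlapped. Its log2 fold change was -0.68 ± 0.27 for methylparaben (limma, adjusted p = 0.125) and -0.39 ± 0.27 for propylparaben (limma, adjusted p = 0.445; between -0.86 and 0.09 over the alternatives and tools). The 6 vehicle libraries that were low on the first principal component averaged 54.7, and the other 13 averaged 14.3 ± 8.10 (SD). Without the 7 libraries low on that component the methylparaben value was -0.18 (limma, adjusted p = 0.905; from 0.0176 to 0.990 over all alternatives and tools).

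Cyp2e1, which oxidises ethanol and other small molecules, ranged most widely beside Ces1d. Its lowest, median and highest values were 0, 0.437 and 2.21 scaled CPM in vehicle, 0, 1.71 and 131 in methylparaben and 0, 0.566 and 25.9 in propylparaben. It was at 0 in 18 of 59 libraries, and replicate 5 was again the highest in both treated groups. For Cyp2e1 the log2 fold change was 0.75 ± 0.41 for methylparaben (limma, adjusted p = 0.268) and 0.71 ± 0.41 for propylparaben (limma, adjusted p = 0.342). Without methylparaben replicate 5 the first was 0.45, and with the adipocyte score in the fit they were -0.17 and 0.07.

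Cyp4v3 and Cyp2j6, which act on fatty acids, had higher medians in both treated groups without passing the test. For Cyp4v3 the medians were 6.76, 9.67 and 9.26 scaled CPM in vehicle, methylparaben and propylparaben, and its log2 fold changes were 0.42 ± 0.21 and 0.47 ± 0.21 (limma, adjusted p = 0.215 and 0.203). Without the 7 libraries low on the first principal component they were -0.05 and 0.03. For Cyp2j6 the medians were 2.64, 4.66 and 3.66, and 16 of 20 libraries of each ester lay above the vehicle median. Its log2 fold changes were 0.39 ± 0.21 and 0.42 ± 0.21 (limma, adjusted p = 0.271 and 0.281), and both were 0.11 without those 7 libraries.

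Cyp3a57, of the Cyp3a drug-oxidising subfamily, had one of the 3 largest spreads, an SD of 1.31 on the log2 scale. Values had a minimum, median and maximum of 0, 5.46 and 40.9 scaled CPM in vehicle, 0.424, 7.13 and 29.0 in methylparaben and 0, 6.54 and 14.4 in propylparaben. Its log2 fold changes were 0.55 ± 0.40 and 0.20 ± 0.40 (limma, adjusted p = 0.429 and 0.820), with 14 of 20 methylparaben libraries above the vehicle median. Over the alternatives and tools they ran from -0.13 to 0.72 and from -0.43 to 0.38. Cyp2f2, known for naphthalene oxidation in airway cells, had medians of 7.55, 7.56 and 8.07 in vehicle, methylparaben and propylparaben and an SD of 1.06. Both genes ranged widely inside every group, and the groups overlapped. The remaining P450s, Cyp2d22, Cyp4b1, Cyp4f13, Cyp4f16, Cyp4f17, Cyp4f18 and Cyp2u1, had log2 fold changes between -0.12 and 0.17 for methylparaben and between -0.12 and 0.08 for propylparaben. Cyp2d22, with a mean of 12.8 scaled CPM, was the highest of these.

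Among the glutathione transferases, Gstt3 and Gstm1 came closest to the threshold, in opposite directions. Gstt3 lies on chr10:75774115-75781414 in the theta class cluster with Gstt1 and Gstt2. Its lowest, median and highest values were 89.6, 112 and 262 scaled CPM in vehicle, 67.3, 100 and 135 in methylparaben and 64.3, 107 and 171 in propylparaben. The groups overlapped, with the highest values in vehicle, and 17 of 20 methylparaben libraries lay below the vehicle median. Gstt3 had a log2 fold change of -0.43 ± 0.12 for methylparaben (limma, adjusted p = 0.0537) and -0.29 ± 0.12 for propylparaben (limma, adjusted p = 0.189). The 6 vehicle libraries low on the first principal component averaged 203, and the other 13 averaged 112 ± 24.5 (SD). Without the 7 low libraries the methylparaben value was -0.18 (limma, adjusted p = 0.850; from 0.0113 to 0.990 over all alternatives and tools). Its exons overlap those of Gm20441 on the same strand, so its level is uncertain where counting could not assign a read.

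Gstt1 and Gstt2 had negative fold changes in both treated groups as well. Gstt1 had medians of 15.3, 12.1 and 11.4 scaled CPM in vehicle, methylparaben and propylparaben, and log2 fold changes of -0.42 ± 0.20 and -0.35 ± 0.20 (limma, adjusted p = 0.206 and 0.345). Gstt2 had log2 fold changes of -0.26 ± 0.24 and -0.28 ± 0.24. Vehicle replicate 7 held the highest value of all 3 theta class genes.

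Gstm1, a mu class transferase, lies on chr3:108012255-108017973. Its lowest, median and highest values were 3.29, 8.75 and 14.6 scaled CPM in vehicle, 5.32, 13.2 and 69.7 in methylparaben and 7.86, 11.2 and 29.2 in propylparaben. Replicate 5 was the highest library in both treated groups, and 17 of 20 methylparaben and 18 of 20 propylparaben libraries lay above the vehicle median. Gstm1 had a log2 fold change of 0.61 ± 0.18 for methylparaben (limma, adjusted p = 0.0570) and 0.50 ± 0.18 for propylparaben (limma, adjusted p = 0.135). It was 0.49 for methylparaben without replicate 5 (limma, adjusted p = 0.0873; from 0.0148 to 0.990 over all alternatives and tools), and 0.27 with the adipocyte score in the fit.

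Gstm2 beside it had log2 fold changes of 0.50 ± 0.23 and 0.33 ± 0.23 (limma, adjusted p = 0.192 and 0.456), and -0.09 and -0.13 with the 6 tissue scores in the fit. Gstm4, Gstm5 and Gstm7 of the same cluster lay between -0.06 and 0.18 in both comparisons with vehicle. Mu class genes resemble each other in sequence, and reads that fit several could have been lost in counting.

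Gsta3, an alpha class transferase known for conjugating aflatoxin epoxide in mice, was higher in methylparaben. Its lowest, median and highest values were 0, 1.5 and 2.94 scaled CPM in vehicle, 0.824, 3.17 and 7.64 in methylparaben and 0, 2.05 and 7.43 in propylparaben. The groups overlapped, and the highest libraries were methylparaben replicate 16 and propylparaben replicate 12, not replicate 5. The log2 fold change was 0.71 ± 0.22 for methylparaben (limma, adjusted p = 0.0667), 0.67 without replicate 5 and 0.65 with the adipocyte score in the fit. For propylparaben it was 0.32 ± 0.22 (limma, adjusted p = 0.450).

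The remaining transferases did not pass the test either. Gsto1 had means of 63.2 ± 9.30, 68.7 ± 13.3 and 66.6 ± 11.6 scaled CPM in vehicle, methylparaben and propylparaben (SD), and the lowest spread of all members, an SD of 0.25 on the log2 scale. Gstz1, the maleylacetoacetate isomerase of tyrosine breakdown, had medians of 24.8, 28.3 and 25.6, with 171 in methylparaben replicate 5. Gstk1, Gsta4 and Gsto2 had log2 fold changes between -0.13 and 0.21 in the comparisons with vehicle. Gstp1 was at -0.11 ± 0.15 for methylparaben and -0.35 ± 0.15 for propylparaben (limma, adjusted p = 0.712 and 0.205), on 198 reads over all libraries, and 16 of 20 propylparaben libraries lay below the vehicle median.

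**Figure D3:**
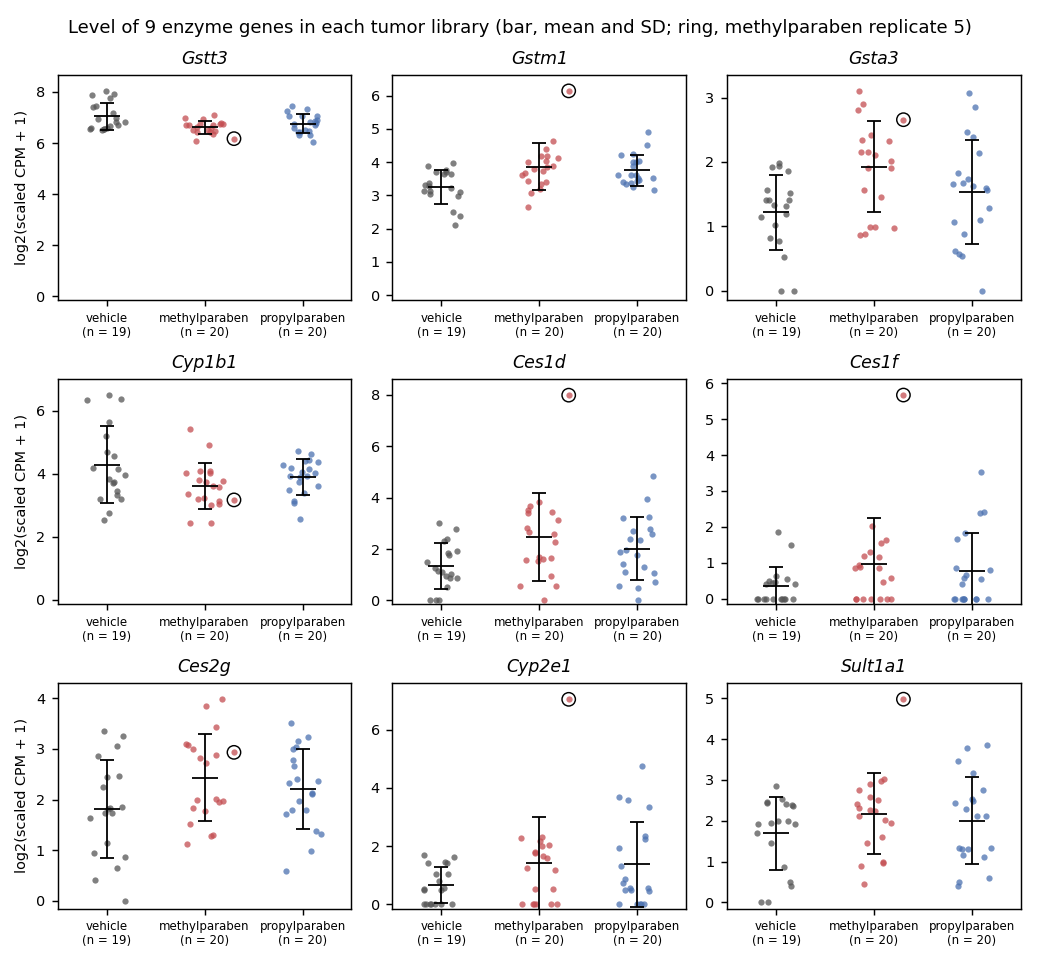
Log2(scaled CPM + 1) of 9 enzyme genes, 1 point per library, with the group mean and SD as a bar; the ringed point is methylparaben replicate 5. The groups overlap for every gene, and the ringed library stands above all others for Gstm1, Ces1d, Ces1f, Cyp2e1 and Sult1a1 but not for Gstt3, Gsta3, Cyp1b1 or Ces2g.

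Sulfotransferases were low throughout. Sult1a1, which sulfates simple phenols, had lowest, median and highest values of 0, 2.83 and 6.23 scaled CPM in vehicle, 0.366, 3.76 and 30.5 in methylparaben and 0.323, 3.34 and 13.5 in propylparaben. Replicate 5 was again the highest library in both treated groups. The log2 fold change was 0.48 ± 0.31 for methylparaben and 0.31 ± 0.31 for propylparaben (limma, adjusted p = 0.358 and 0.607). The direction turned with the adipocyte score in the fit, at -0.17 and -0.14, and without the 7 libraries low on the first principal component, at -0.05 and -0.15. In vehicle the 6 libraries low on the first principal component ran from 0 to 1.75 and the other 13 from 2.25 to 6.23, without overlap. Those libraries were set apart by all genes, so this difference is given as a description. Sult5a1 was at 0.38 ± 0.19 and 0.45 ± 0.19 for the esters (limma, adjusted p = 0.232 and 0.197), on 166 reads in all. Its highest value was 7.96 scaled CPM in propylparaben replicate 10, and the second highest of that group was 2.40. Intronic reads of Sult5a1 went the other way, at -0.72 ± 0.37 and -0.39 ± 0.37 (limma, adjusted p = 0.381 and 0.704). Sult1d1, which sulfates catecholamines, was at 0.26 ± 0.19 and 0.12 ± 0.19.

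The esters differ in the alcohol part of the molecule, a methyl or a propyl group, and were compared directly for all 36 members. The labels give no doses, so it is not known whether they were matched. The smallest unadjusted p was that of Gsta3, with a log2 difference of propylparaben minus methylparaben of -0.39 (95% interval -0.83 to 0.05; limma, adjusted p = 1). For Ces1d the difference was -0.46 with an interval from -1.27 to 0.36, and for Cyp2e1 it was -0.04 with an interval from -0.84 to 0.76. For Gsto1 the interval was narrow, from -0.20 to 0.12, and for Gstm1 it was -0.46 to 0.24. The wide intervals leave room for differences of over 1.5-fold in Ces1d and Cyp2e1, and a missed threshold does not show that the esters act alike.

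Members also lay together in the genome. The 36 genes fell into 26 loci, of which 5 hold 2 or more members: the Gstt cluster on chromosome 10, the Gstm cluster on chromosome 3, the Cyp4f cluster on chromosome 17, the Gsto pair on chromosome 19 and the Ces1 pair on chromosome 8. RefSeq (GRCm38.p6) lists a promoter for 28 of the 36 members, and the 250 bases before each start were searched on both strands for 5 motifs. Shown first are the promoters of the theta class neighbours Gstt3 and Gstt1, the pair of the cluster with the lowest fold changes, and then those of Gsta3 and Cyp2e1, which hold a motif. Gstt3 lies on the minus strand at chr10:75781415-75781664, Gstt1 on the minus strand at chr10:75797732-75797981, Gsta3 on the plus strand at chr1:21240335-21240584 and Cyp2e1 on the plus strand at chr7:140763569-140763818. Capitals mark a motif match.
Gstt3: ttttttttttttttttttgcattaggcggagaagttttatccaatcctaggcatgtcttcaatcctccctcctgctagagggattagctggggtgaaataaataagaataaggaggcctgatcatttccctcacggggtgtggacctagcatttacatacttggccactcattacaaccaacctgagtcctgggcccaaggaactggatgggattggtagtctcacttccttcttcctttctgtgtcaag
Gstt1: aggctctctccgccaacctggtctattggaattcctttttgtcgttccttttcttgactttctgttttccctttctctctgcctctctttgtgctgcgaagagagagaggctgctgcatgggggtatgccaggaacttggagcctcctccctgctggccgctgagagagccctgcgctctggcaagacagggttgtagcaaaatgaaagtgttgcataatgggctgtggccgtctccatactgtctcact
Gsta3: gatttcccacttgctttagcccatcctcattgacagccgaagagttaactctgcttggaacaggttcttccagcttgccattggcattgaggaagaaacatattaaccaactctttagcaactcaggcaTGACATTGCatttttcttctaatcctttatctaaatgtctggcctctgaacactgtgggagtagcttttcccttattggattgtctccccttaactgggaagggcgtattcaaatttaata
Cyp2e1: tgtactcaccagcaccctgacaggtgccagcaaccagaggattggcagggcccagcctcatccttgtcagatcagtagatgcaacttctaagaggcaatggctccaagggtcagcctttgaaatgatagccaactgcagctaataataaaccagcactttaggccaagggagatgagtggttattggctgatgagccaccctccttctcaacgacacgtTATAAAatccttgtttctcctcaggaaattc

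The antioxidant response core TGACNNNGC occurs in 4 of the 28 member promoters (14.3%; Cyp4f18, Gsta3, Gstm5 and Gstm7) and in 11.5% of 27025 gene promoters. The xenobiotic response core TNGCGTG occurs in 1 member promoter, that of Sult1d1 (3.57%), against 4.76% of all. The TATA box TATAAA occurs in 4 (14.3%; Cyp2e1, Ephx1, Gstm1 and Gstm7), against 14.3% of all, and in Cyp2e1 it ends 25 bases before the start. The DR1 and ERE motifs occur in 0 member promoters and in 0.0407% and 0.0666% of all. Members' shares were near those of all genes. Gstt3 and Gstt1 hold none of the motifs in these windows, which says only that these letters are not there.

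Members varied together in a few sets. Over all 630 pairs, with the group means removed, the median Spearman rho across 59 libraries was 0.10. It was 0.26 for the 18 pairs of genome neighbours within 1 Mb, and 34 pairs lay above 0.5, of which 3 were neighbours. Pairs of the same family that were not neighbours had a median of 0.08, with 3 of 172 above 0.5. Both values of a pair come from the same library and share its scaling factor, so these are descriptions without a test. Pairs of all tested genes were not computed, so the values cannot be called particular to these enzymes. The highest was Ces1f with Cyp2e1 at 0.78, on different chromosomes, followed by Cyp2e1 with Cyp2f2 at 0.72 and Gstm1 with its neighbour Gstm2 at 0.69. Gstt2 with Gstt3 reached 0.54 and Gstt1 with Gstt3 0.44. Neighbours also went their own way: Gsto1 and Gsto2, 744 bases apart, had a rho of 0.01, and Cyp4f16 and Cyp4f17 -0.16. Ces1d and Ces1f reached 0.55 over all libraries, while Pearson's r in vehicle alone was -0.16.

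Several members followed markers of other cells in the tumor piece. The summed adipocyte markers had medians of 170.0, 482 and 252 scaled CPM in vehicle, methylparaben and propylparaben, and all 11 lay above 0 in both comparisons with vehicle. None of the 11 passed limma. Of 504 relations between a member and a marker score (permutation tests with groups kept, adjusted over all 504), Cyp2e1 with the adipocyte score was strongest. Its Pearson r was 0.87 and its Spearman rho 0.84 (permutation, 59 libraries, adjusted p = 0.000153 and 0.000174). Without the 2 libraries farthest from the median score r was 0.82, and within vehicle, methylparaben and propylparaben it was 0.68, 0.93 and 0.88.

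Sult1a1 (r = 0.82, rho = 0.79) and Ces1f (0.81, 0.80) had the next strongest relations with the adipocyte score, with the same adjusted permutation p as Cyp2e1 and an r of 0.76 and 0.73 without the 2 libraries. For Ces1d r was 0.75 and rho 0.69, with the same adjusted permutation p, but r was 0.64 without the 2 libraries and 0.29 within vehicle. In all 12 members had a relation with the adipocyte score at an adjusted permutation p under 0.05 in both tests, 11 of them positive. That is 33.3% of the members, against 21.4% of 14476 tested genes at the same permutation p, of which 11.7% were positive and 9.73% negative (percent of all genes, the score's own genes left out). Gstt3 was the negative one, with r = -0.40 and rho = -0.42 (adjusted permutation p = 0.00242 and 0.00549). Ces1f is counted among the 12, though it is a member only through methylparaben replicate 5. That library also held the highest summed adipocyte markers, so the share of members is a description. Adipocytes are known to express Ces1d, Ces1f and Cyp2e1. What part the adipocyte content has in the group differences was not tested beyond the covariate fits given.

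Other scores went with some of the same members and with further ones. At an adjusted permutation p under 0.05 in both tests, the endothelium score was related to 11 members, 10 of them positive. Cyp2e1, Ces1f and Gstm2 had the largest absolute r with it. The mast cell score was related to 13 members and the fibroblast score to 11, with 10 positive for each. Shares of all genes were not computed for these scores. Ces2g followed the fibroblast score (r = 0.80, rho = 0.80), with r of 0.76 without the 2 libraries farthest from the median score and 0.79, 0.86 and 0.78 within vehicle, methylparaben and propylparaben (adjusted permutation p = 0.000153 and 0.000174 over 59 libraries). Gstm2 followed the mast cell score (0.76, 0.79) and the fibroblast score (0.75, 0.80) at the same adjusted permutation p, with r of 0.73 and 0.74 without the 2 libraries. Cyp4f18, which inactivates leukotriene B4 in myeloid cells, followed the macrophage score at r = 0.60 and rho = 0.55 (adjusted permutation p = 0.000153 and 0.000531), and r was 0.54 without the 2 libraries. Gstt1 was lower where the luminal epithelial score was higher, with r = -0.58 and rho = -0.56 (adjusted permutation p = 0.000153 and 0.000288), and r was -0.52 without the 2 libraries. Each score was taken alone, so members related to several scores are not assigned to 1 cell type.

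The dividing cell score went the opposite way to most of these. Of 14 members with a relation to it in both tests, 13 were negative and 1, Gstt3, was positive. The 14 are 38.9% of the members, against 29.6% of 14477 tested genes at the same permutation p, of which 15.6% were negative and 14% positive. Gstt3 had r = 0.56 and rho = 0.49 (adjusted permutation p = 0.000352 and 0.00189), but r was 0.51 without the 2 libraries and 0.24 within methylparaben. Sult1a1 had r = -0.73 and rho = -0.72, and Gstm1 r = -0.66 and rho = -0.65 (adjusted permutation p = 0.000153 and 0.000174 for both), and r was -0.70 and -0.61 without the 2 libraries. The score's mean was 5.84, 5.35 and 5.44 in vehicle, methylparaben and propylparaben, and all 10 of its genes lay below 0 for methylparaben, of which Ccna2 and Ccnb1 passed limma at adjusted p = 0.0456 and 0.0492, calls that were lost in 24 and 39 of 59 fits with 1 library left out. With the dividing cell score in the fit, Gstm1 stood at 0.21 and Gstt3 at -0.20 for methylparaben. The part of this score in the group differences was not tested further.

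**Figure D4:**
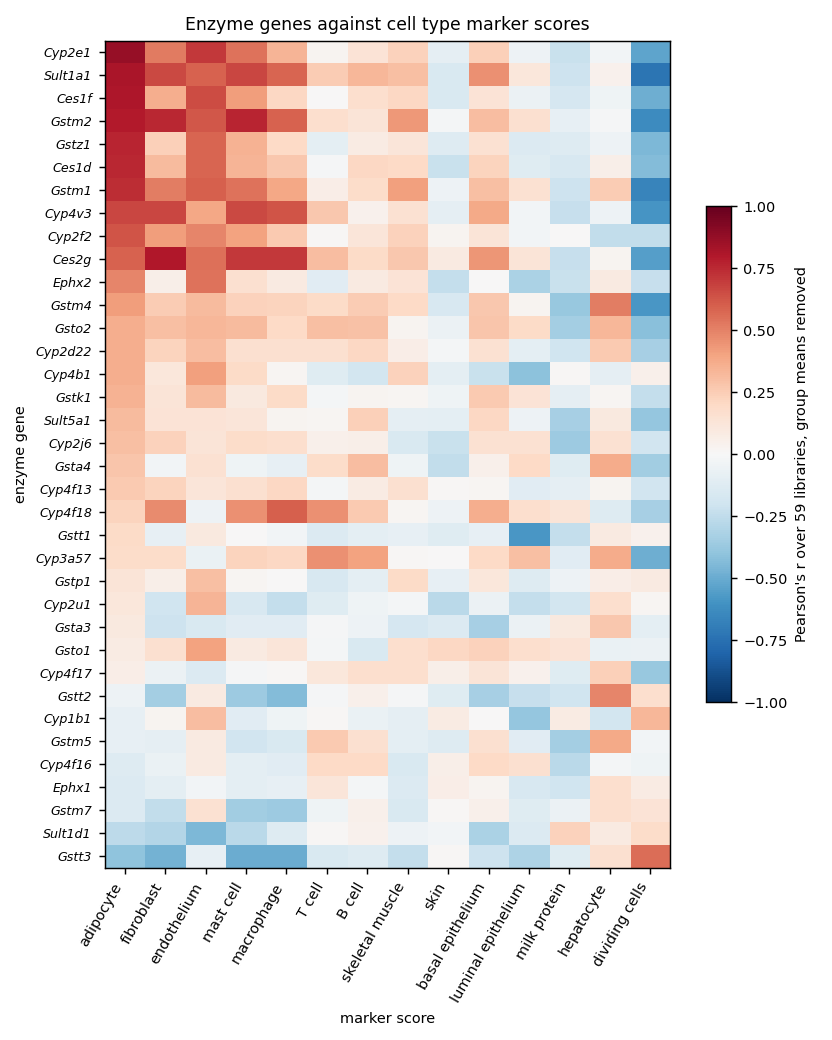
Pearson's r of each enzyme gene (rows, ordered by r with the adipocyte score) with each cell type marker score (columns) across 59 libraries, group means removed; red is positive and blue negative. Cyp2e1, Sult1a1 and Ces1f top the adipocyte column, and the dividing cell column is mostly blue with Gstt3 as the reddest cell.

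**Figure D5:**
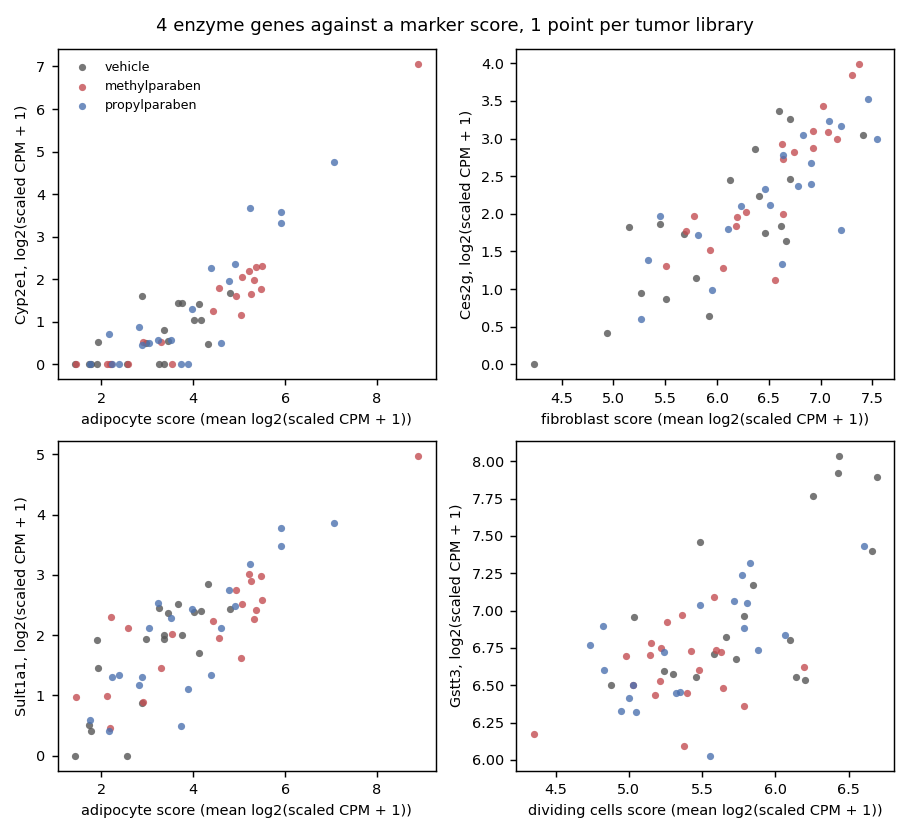
Log2(scaled CPM + 1) of Cyp2e1, Ces2g, Sult1a1 and Gstt3 against a marker score (mean log2(scaled CPM + 1) of the list), 1 point per library, coloured by group. Methylparaben replicate 5 is the point farthest right in both adipocyte panels, and vehicle libraries hold the highest Gstt3 values, at the right of its panel.

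Intronic reads of the same genes, deposited as a separate table, gave a second view. All 36 members have an intron row and 26 passed the mean of 1. No member intron passed limma in any comparison, and 0 of the 14281 introns tested did. For methylparaben the member introns of smallest p had log2 fold changes of -0.71 for Gstt1, -0.61 for Cyp1b1 and 0.97 for Cyp3a57 (limma, adjusted p = 0.348, 0.336 and 0.357). For propylparaben those of smallest p had 0.80 for Cyp2e1 and 0.60 for Cyp4v3 (limma, adjusted p = 0.397 and 0.310). How many introns of all genes had a p as small was not counted, so these values are descriptions. Across libraries the gene and intron values of Cyp1b1 had r = 0.96 and rho = 0.95 (adjusted permutation p = 3.71e-05 and 3.25e-05 over 59 libraries and 26 genes), with r = 0.94 without the 2 libraries farthest from the median. Cyp3a57 followed with r = 0.93 and rho = 0.92 at the same adjusted permutation p, and 0.92 without the 2 libraries. For Gstz1 r was 0.02, for Cyp4f16 0.04 and for Gsta3 0.06, none of which passed. Exons of Gstz1, Gstm5, Cyp2f2, Cyp4f18, Sult1a1 and Cyp2u1 overlap exons of a gene on the other strand, and without a stated strand setting their reads cannot be told apart from it.

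Partner genes of these enzymes were tested in the same fit. Of 127 tested genes in 10 lists, covering transporters, receptors, electron donors, cofactor supply and other hydrolases, 2 passed higher and 1 lower for methylparaben (limma), 2.36% against 1.32% of all genes. The lists were chosen with earlier results of these data known, so these shares are a description and no test of the lists. Abcb1a, the efflux pump P-glycoprotein, rose from 4.34 to 7.65 scaled CPM, a log2 fold change of 0.80 ± 0.19 (limma, adjusted p = 0.0342). Esr1, the estrogen receptor, rose from 11.5 to 19.6, at 0.88 ± 0.23 (limma, adjusted p = 0.0400). Faah, which hydrolyses fatty acid amides, fell from 7.55 to 3.58, at -0.82 ± 0.22 (limma, adjusted p = 0.0440). All 3 calls were lost with the adipocyte score, the 6 tissue scores or the dividing cell score in the fit and without the 7 libraries low on the first principal component, where 0 genes of any kind were called. With the adipocyte score Abcb1a stood at 0.48, Esr1 at 0.53 and Faah at -0.73. The 3 calls were also lost without any 1 of methylparaben replicates 5, 6 and 8 and vehicle replicates 1, 7, 8, 10, 14 and 19, and in all Abcb1a lost its call in 9, Esr1 in 20 and Faah in 22 of 59 such fits. For propylparaben 0 partner genes passed, and Esr1 stood at 0.87 ± 0.23 (limma, adjusted p = 0.0681) and Papss1, which makes the sulfate donor, at 0.34 ± 0.09 (limma, adjusted p = 0.0692). The electron donor, glutathione supply, microsomal transferase, glucuronate and sulfate lists had 0 calls in both comparisons.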

How the data were processed

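RNA-seq of 59 mammary tumors was analysed from 2 deposited tables. Tools named in the submitters' processing notes are bcl2fastq 2.20.0.422, STAR 2.6.1d and HTSeq 0.10.0, with the build GRCm38. Which annotation, strand setting and normalization tool served is not given in the sources used here. Deposited values are a normalized signal: every value was a whole multiple of 1 factor per library (100% within 1e-06 reads), and the deposited signal equalled TMM-scaled CPM. The gene table holds 55421 genes and 5 HTSeq summary lines, and intronic values cover 33282 genes.

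The main test was limma 3.58.1 with its trend option (R 4.3.3) on log2(value + 1). It used 1 fit of all 59 libraries with a mean per group. Rows with a mean under 1 were left out, which kept 14487 genes and 14281 introns. A call is a Benjamini-Hochberg adjusted p under 0.05 over all genes tested. Recovered reads were tested with DESeq2 1.42.0 and the quasi-likelihood test of edgeR 4.0.16 as alternatives. Marker scores are means of log2(value + 1) over a list, and relations with them used 100000 permutations within groups (20000 for the share of all genes). No pair of libraries within a group was a duplicate (lowest chi-square per degree of freedom 1.97 over 11434 genes), and pairs across groups were not compared. Scripts were tested on simulated data. Members, gene lists and alternatives were chosen with earlier results of these data known. Alternatives also covered the pseudocount, the filter, the scaling, a fit of only the compared groups, tissue scores or tumor number as covariates, and libraries left out singly or as sets. The edgeR fits without methylparaben replicate 5 or without the 7 libraries low on the first principal component, and the dividing cell covariate, were added after seeing the data. Members are named by rule: highest per family, smallest p per direction, largest spread, and those next to the mean of 1. Gene positions are from GENCODE M21, promoters from RefSeq. Python 3.11.15 with scipy 1.17.1 and matplotlib 3.10.9 was used.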

Additional observations from a re-analysis of the deposited data

How the results depend on the processing

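No paired analysis was possible because replicate numbers only follow the order of the records. Over 76 alternatives, 0 values of single members reversed after a call, 43 gained a call (none had one to lose), and 282 uncalled values changed sign. For methylparaben against vehicle, 0 members were called. The count became 2 (Gstm1 and Gstt3) with a mean of at least 10, where 3.65% of all genes were called, 1 (Gstt3) with quantile normalization (1.55%), 7 with edgeR (4.04%), 4 with DESeq2 (4.42%) and 1 with edgeR without methylparaben replicate 5 (0.991%). Leaving out 1 library at a time gave 0 to 3, with a call in 13 of 59 fits, each Gstt3, Gstm1 or Gsta3. The libraries whose removal gave a call were vehicle replicates 3, 5, 6, 9, 11, 12, 15 and 17, methylparaben replicates 1, 4, 19 and 20 and propylparaben replicate 1. For propylparaben against vehicle, between the esters and for introns 0 members were called under every alternative run. Over all genes, methylparaben had 191 calls, 0 to 640 under other settings and 1 to 932 with 1 library left out. Propylparaben had 4, with 0 to 231 and 1 to 424. Introns had 0, with up to 48 (edgeR) for methylparaben and 23 with 1 library left out. The cause was not tested. In the 5 members with a mean under 2, counting alone gives a coefficient of variation of 55.2 to 60.4%. For Gstp1 the spread between libraries, 54.5%, was no larger than its 55.2%, while the other 4 exceeded theirs, by most in Ces1f (388 against 56.4%).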

Other observations

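Methylparaben replicate 5 also stood apart for P450s that the comparisons leave in the background. Cyp4b1, a P450 known from lung, read 39.8 scaled CPM there, and the highest of the other 58 libraries was 14.8. Cyp2u1, a fatty acid hydroxylase, read 17.9 against a highest value of 6.55 elsewhere. Gstk1 read 41.2 against 26.8. Cyp1b1 was not raised in it, at 7.97, while the remaining 19 libraries of its group averaged 13.1 ± 8.85 (SD). Gstt3 was at 71.0, below their mean of 100 ± 16 (SD). Cyp4f18 was at 2.66, the lowest of its group.

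The 6 vehicle libraries low on the first principal component of all genes differed from the other 13 in several members, as a description without a test, since these genes helped to place them. Cyp4v3 ran from 1.64 to 5.51 scaled CPM in the 6 and from 4.97 to 17.3 in the 13. Cyp3a57 averaged 1.25 in the 6 and 9.08 ± 10 (SD) in the 13. Gstm1 averaged 6.05 and 10.5 ± 2.57, and Gstt2 22.3 and 12.9 ± 7.95. Gsto1 was alike in both, at 63.3 and 63.2 ± 10.2, as was Gstm5 at 29.9 and 29.8 ± 5.12.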
